A study of Homo sapiens with 6 samples.

Results

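Expression was described for 10 genes of serine synthesis and of the ATF4 amino acid response in fibroblasts undergoing reprogramming towards pluripotency. They were PHGDH, PSAT1, PSPH, SHMT2, ASNS, ATF4, CHAC1, DDIT3, TRIB3 and SESN2, taken by symbol from a table of 27788 gene rows, and all 10 were found and tested among 12210 genes. The study measured poly-A RNA in BJ, an established cell line grown out of human foreskin as fibroblasts. All cells had been infected with lentivirus carrying the constructs O2S and K2M, for the factors OCT4, SOX2, KLF4 and MYC, and were collected on day 8. They were sorted by the surface proteins CD13 and CD201 into 3 groups of 2 libraries each. Double-negative cells were negative for both stains, CD201-only cells lacked CD13 and carried CD201, and double-positive cells carried both. Cells of every group had spent their last days in medium for human embryonic stem cells with knockout serum replacement, glutamine, non-essential amino acids, bFGF and beta-mercaptoethanol, and were trypsinized before the sort. The labels do not say whether replicates came from separate infections, so p-values measure only the spread between these libraries, which may be technical.

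Cells make serine from the glycolytic intermediate 3-phosphoglycerate in a chain of enzymes, PHGDH, PSAT1 and PSPH, and SHMT2 then splits serine in mitochondria into glycine and a one-carbon unit carried by folate. ATF4 is a transcription factor whose protein is made more efficiently when the initiation factor eIF2 is phosphorylated, as when amino acids run short or the endoplasmic reticulum is stressed. It activates enzymes of serine and asparagine synthesis, amino acid transporters and tRNA synthetases, and, with its target DDIT3 (the factor CHOP), stress genes such as CHAC1 and TRIB3. Because ATF4 is controlled largely at translation, its RNA level is not a measure of its protein.

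The libraries were similar in size and the groups stood apart. Approximate depth ran from 12.8 to 17.6 M fragments (M, mega). The lowest correlation between replicates over the tested genes was 0.9919 and the highest between groups was 0.9807. Levels are given in FPKM (fragments scaled by transcript length and by library size), which can be compared between genes because it is per length. Changes are limma estimates on the scale of log2(FPKM + 1), the first-named group minus the second, and a gene was called at a Benjamini-Hochberg adjusted p under 0.05. Summed fibroblast markers were at 5479 to 5482 FPKM in double-negative, 6310 to 6336 FPKM in CD201-only and 10586 to 10744 FPKM in double-positive cells. The sums do not stand for every marker. Between double-negative and CD201-only cells 6 of the 9 tested rose and 2 fell (median log2 change 0.15). The largest fall was in S100A4, at 1270 FPKM in double-negative and 2566 FPKM in CD201-only cells. Some fibroblast markers were low in the CD13-negative libraries, LUM at 0.264 to 0.614 FPKM, FAP at 0.122 to 0.84 FPKM and DCN at 0.64 to 1.42 FPKM. They were also low in double-positive libraries, LUM at 3.58 and 3.35 FPKM, FAP at 1.26 and 1.37 FPKM and DCN at 3.37 and 3.97 FPKM. Other markers were high in every library, such as VIM at 1420 to 2561 FPKM and THY1 at 1167 to 1644.5 FPKM. In bulk samples fewer cells of a type and less RNA per cell cannot be told apart.

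The 3 enzymes of the serine chain had their highest means in double-negative cells and their lowest in double-positive cells, and CHAC1 was highest in double-positive and lowest in CD201-only cells. By group mean, 7 of the 10 genes were highest in double-negative cells, 3 were highest in double-positive cells and 0 were highest in CD201-only cells. The 4 genes with their lowest mean in CD201-only cells were ASNS, CHAC1, DDIT3 and TRIB3. Between double-negative and double-positive cells 6 genes rose, 1 fell and 3 were not called, where 66.6% of all tested genes were called, 42.1% higher and 24.5% lower. Median-ratio rescaling of the libraries made this 4 higher and 3 lower. Between CD201-only and double-positive cells 3 rose, 2 fell and 5 were not called, where 58.7% of all genes were called, 35.8% higher and 22.9% lower, and rescaling made it 2 higher and 3 lower. Between double-negative and CD201-only cells 5 rose and 0 fell, where 37.9% of all genes were called, 21.5% higher and 16.5% lower, and both counts were the same after rescaling. The 0 also holds at an unadjusted p under 0.05. The shares called among the 10 genes were 70%, 50% and 50%, near those of all genes in the comparisons with double-positive cells. By the F test over the 3 groups 8 of the 10 were called, all but SHMT2 and SESN2, where 73% of all genes were. The libraries of the groups did not overlap for 9 of the 10 genes when double-negative were set against double-positive cells (83.3% of all genes), for 7 between CD201-only and double-positive cells (79.3%) and for 8 between double-negative and CD201-only cells (71.9%). The first 2 comparisons share the double-positive libraries. After median-ratio rescaling 48.3% of the calls over all genes were higher in double-negative than in double-positive cells, against 63.2% as deposited, and 48.1% in CD201-only than in double-positive cells, against 61% as deposited.

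**Figure D1:**
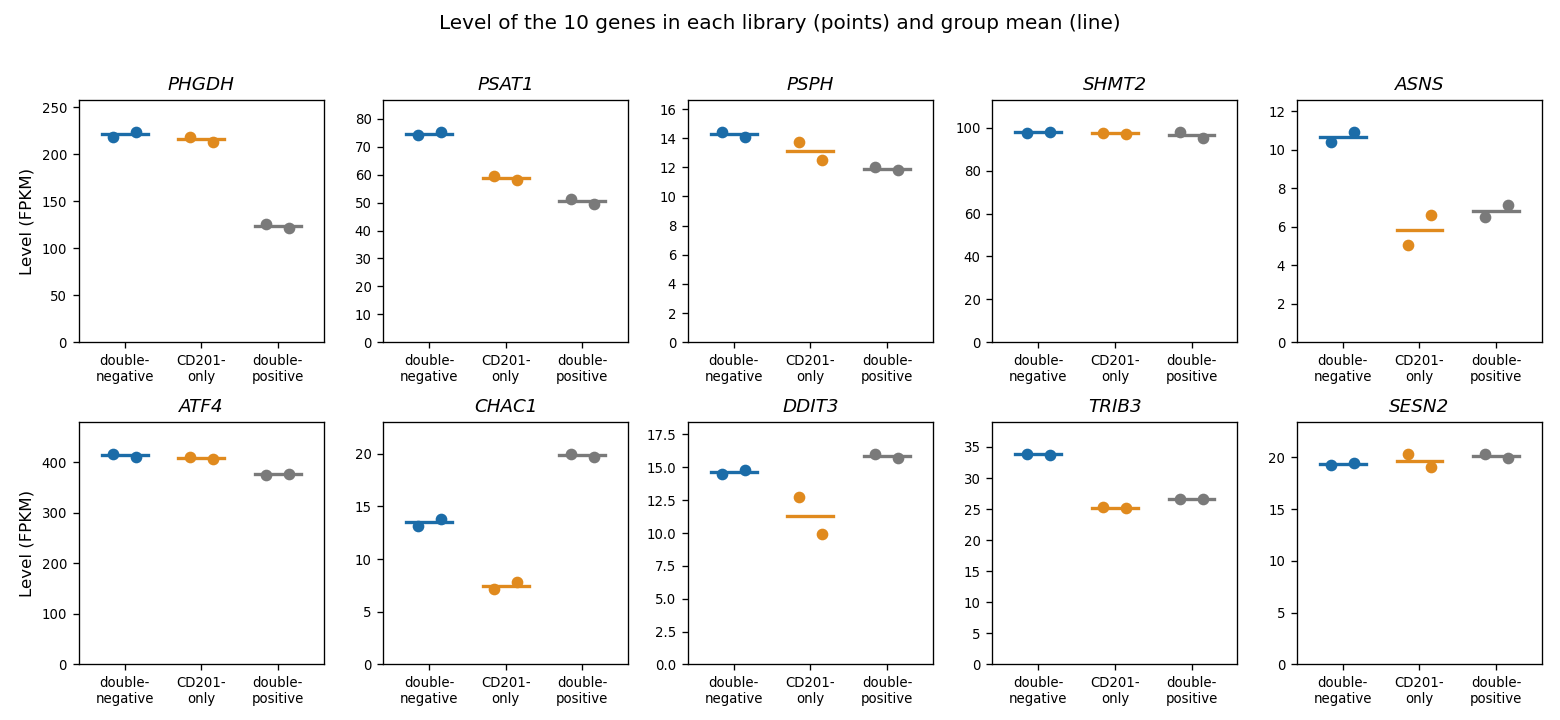
Level of each of the 10 genes in FPKM (vertical axes, from 0) in the 2 libraries (points) and the mean (line) of the double-negative, the CD201-only and the double-positive group. PHGDH is at 213 to 224 FPKM in the 4 libraries of CD13-negative cells and at 122 to 126 FPKM in double-positive cells, while CHAC1 is lowest in CD201-only cells, at 7.12 and 7.82 FPKM.

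PHGDH, which oxidizes 3-phosphoglycerate in the first step of serine synthesis, separated the cells by CD13. It was at 218 and 224 FPKM in double-negative, 218 and 213 FPKM in CD201-only and 126 and 122 FPKM in double-positive libraries. The 4 CD13-negative libraries all lay above both double-positive ones, and overlapped with each other. PHGDH rose 1.79-fold in double-negative cells, with a mean of 221 ± 3.91 FPKM against 124 ± 2.75 FPKM in double-positive cells (SD, n = 2 each; log2 change 0.83, SE 0.0277, limma adjusted p = 6.99e-07). It rose 1.74-fold in CD201-only cells, at 216 ± 3.60 FPKM (0.80, adjusted p = 1.08e-06). Between double-negative and CD201-only cells the change was 0.03, with a 95% interval of -0.03 to 0.10 and adjusted p = 0.363. Its change against double-positive cells stood at percentile 96.4 of all tested genes for double-negative and at percentile 98.0 for CD201-only cells.

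PSAT1, the transaminase of the second step, formed a graded series. Its levels were 74.1 and 75.4 FPKM in double-negative, 59.5 and 58.3 FPKM in CD201-only and 51.2 and 49.7 FPKM in double-positive libraries. No 2 groups overlapped. PSAT1 rose 1.48-fold in double-negative against double-positive cells (log2 change 0.56, SE 0.0305, adjusted p = 5.88e-06), 1.17-fold in CD201-only against double-positive cells (0.22, adjusted p = 0.000733) and 1.27-fold in double-negative against CD201-only cells (0.34, adjusted p = 0.000193). Median-ratio rescaling, which sets the libraries level by their median gene, gave 0.14 for the change in CD201-only cells (adjusted p = 0.0093). The annotation used here, GENCODE 29, names 4 pseudogenes of PSAT1, and how the authors treated reads shared with them is not given in the sources used here.

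PSPH, the phosphatase that releases serine, followed the same order with smaller steps. It was at 14.5 and 14.1 FPKM in double-negative, 13.7 and 12.5 FPKM in CD201-only and 12.0 and 11.8 FPKM in double-positive libraries. The groups did not overlap, but the CD201-only replicates were 9.55% of their mean apart. PSPH rose in double-negative against double-positive cells (log2 change 0.24, SE 0.0551, adjusted p = 0.00645), but not after median-ratio rescaling (0.13, adjusted p = 0.078). The change of CD201-only against double-positive cells was also 0.13 (adjusted p = 0.0813), and it passed the threshold without CD201-only replicate 2 (0.19, adjusted p = 0.0353). One pseudogene, PSPHP1, is named in GENCODE 29.

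SHMT2 was level across the groups. Its values were 97.8 and 98.2 FPKM in double-negative, 97.6 and 97.2 FPKM in CD201-only and 98.0 and 95.5 FPKM in double-positive libraries. The highest group mean was 1.01 times the lowest, and none of the comparisons was called, with 95% intervals of -0.04 to 0.08 for double-negative and -0.05 to 0.07 for CD201-only against double-positive cells. Median-ratio rescaling placed SHMT2 lower in double-negative cells (-0.10, adjusted p = 0.0154).

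The 3 enzymes of the serine chain thus had the same order of group means, double-negative above CD201-only above double-positive, although PHGDH and PSPH were not called between double-negative and CD201-only cells, nor PSPH between CD201-only and double-positive cells. Their ratios to double-positive cells became smaller along the chain, at 1.79, 1.48 and 1.20 in double-negative and 1.74, 1.17 and 1.10 in CD201-only cells for PHGDH, PSAT1 and PSPH. PHGDH was also the most abundant of the chain and PSPH the least, in every library.

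ASNS, which makes asparagine from aspartate and glutamine, was high in double-negative cells alone. It was at 10.4 and 11.0 FPKM in double-negative, 5.06 and 6.62 FPKM in CD201-only and 6.51 and 7.13 FPKM in double-positive libraries. Both double-negative libraries lay above the other 4, and the CD201-only and double-positive libraries overlapped. ASNS rose 1.57-fold in double-negative against double-positive cells (log2 change 0.58, SE 0.108, adjusted p = 0.00257) and 1.83-fold against CD201-only cells (0.78, adjusted p = 0.00145). With all genes kept, whatever their level, both missed the threshold (adjusted p = 0.0565 against double-positive and 0.0526 against CD201-only cells). The CD201-only libraries were 26.7% of their mean apart, where counting alone gives a coefficient of variation of about 8.01% for replicate 1 and 6.31% for replicate 2. Against double-positive cells the change of -0.20 in CD201-only cells was not called (adjusted p = 0.148), but without CD201-only replicate 2 it was -0.37 (adjusted p = 0.0125).

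The RNA of ATF4 itself was abundant and nearly level. ATF4 was at 416 and 409.9 FPKM in double-negative, 409 and 406 FPKM in CD201-only and 375 and 377 FPKM in double-positive libraries, and it ranked 159 to 173 of all rows. The 3 groups did not overlap, yet they spanned only 1.10-fold. ATF4 rose in double-negative (log2 change 0.14, SE 0.0203, adjusted p = 0.000863) and in CD201-only cells (0.12, adjusted p = 0.00226) against double-positive cells. The median of all tested genes rose by nearly as much, 0.11 and 0.08 in these comparisons, and neither call held after median-ratio rescaling (0.014, adjusted p = 0.596, and 0.033, adjusted p = 0.233). They held under quantile normalization (0.085, adjusted p = 0.00809, and 0.063, adjusted p = 0.0305). GENCODE 29 names 4 pseudogenes of ATF4.

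CHAC1, an enzyme that breaks down glutathione, had the largest change of the 10 genes. Its levels were 13.2 and 13.8 FPKM in double-negative, 7.12 and 7.82 FPKM in CD201-only and 20.0 and 19.7 FPKM in double-positive libraries. The groups were far apart and did not overlap. CHAC1 fell in CD201-only cells to 7.47 ± 0.50 FPKM, against 19.9 ± 0.201 FPKM in double-positive cells (SD, n = 2 each), a ratio of 0.376 (log2 change -1.30, SE 0.0558, adjusted p = 2.47e-06). In double-negative cells the ratio to double-positive cells was 0.679 (-0.53, adjusted p = 0.000156). Double-negative cells were 1.81-fold above CD201-only cells (0.78, adjusted p = 6.72e-05). Of all tested genes 3.62% had these 3 calls in these directions.

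DDIT3, which encodes CHOP, was also lowest in CD201-only cells but less firmly. It was at 14.5 and 14.8 FPKM in double-negative, 12.7 and 9.89 FPKM in CD201-only and 16.0 and 15.7 FPKM in double-positive libraries. The CD201-only replicates were 25.1% of their mean apart, on about 158 and 151 fragments. DDIT3 fell in CD201-only against double-positive cells (log2 change -0.46, SE 0.099, adjusted p = 0.00572), at -0.30 without CD201-only replicate 2 (adjusted p = 0.00607) and -0.63 without replicate 1. With all genes kept it was not called (adjusted p = 0.0947). It rose in double-negative against CD201-only cells (0.36, adjusted p = 0.0278). That call did not hold with CD201-only replicate 2 left out (0.19, adjusted p = 0.0504). It did not hold with either double-negative library left out, at 0.37 for replicate 1 (adjusted p = 0.106) and 0.34 for replicate 2 (adjusted p = 0.12). It also failed with all genes kept (adjusted p = 0.223) and with no variance trend in the fit (adjusted p = 0.0562). Averaging the double-negative libraries as 1 also lost it (adjusted p = 0.121). Between double-negative and double-positive cells the change was -0.11 (95% interval -0.34 to 0.13, adjusted p = 0.365). Exons of DDIT3 overlap those of MARS on the other strand by up to 287 nt in GENCODE 29. MARS was at 107.9 and 108.0 FPKM in double-negative, 97.7 and 100.7 FPKM in CD201-only and 86.8 and 87.8 FPKM in double-positive libraries, and the strand setting of the counting is not given in the sources used here.

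TRIB3, a pseudokinase that binds CHOP and AKT, resembled ASNS. It was at 33.9 and 33.7 FPKM in double-negative, 25.3 and 25.2 FPKM in CD201-only and 26.7 and 26.7 FPKM in double-positive libraries. Double-negative libraries lay above all others, and replicates were within 0.513% of their mean. TRIB3 rose in double-negative against double-positive cells (log2 change 0.33, SE 0.0321, adjusted p = 0.0001) and against CD201-only cells (0.41, adjusted p = 0.000103). After median-ratio rescaling the change against double-positive cells was 0.21 (adjusted p = 0.0011). The change of CD201-only against double-positive cells was -0.08 (adjusted p = 0.0755). It was past the threshold at -0.16 after median-ratio rescaling (adjusted p = 0.00545), at -0.11 after quantile normalization (adjusted p = 0.0216) and with all genes kept (adjusted p = 0.00445). ASNS and TRIB3 shared their pattern of calls, which 6.56% of tested genes had.

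SESN2 encodes a leucine-binding inhibitor of mTORC1 signalling that is a target of p53 as well as of ATF4. It was at 19.2 and 19.5 FPKM in double-negative, 20.3 and 19.1 FPKM in CD201-only and 20.4 and 19.9 FPKM in double-positive libraries. The CD201-only libraries overlapped with both other groups, and none of the changes, -0.05, -0.03 and -0.02, was called. Median-ratio rescaling called it lower in double-negative against double-positive cells (-0.17, adjusted p = 0.0125).

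**Figure D2:**
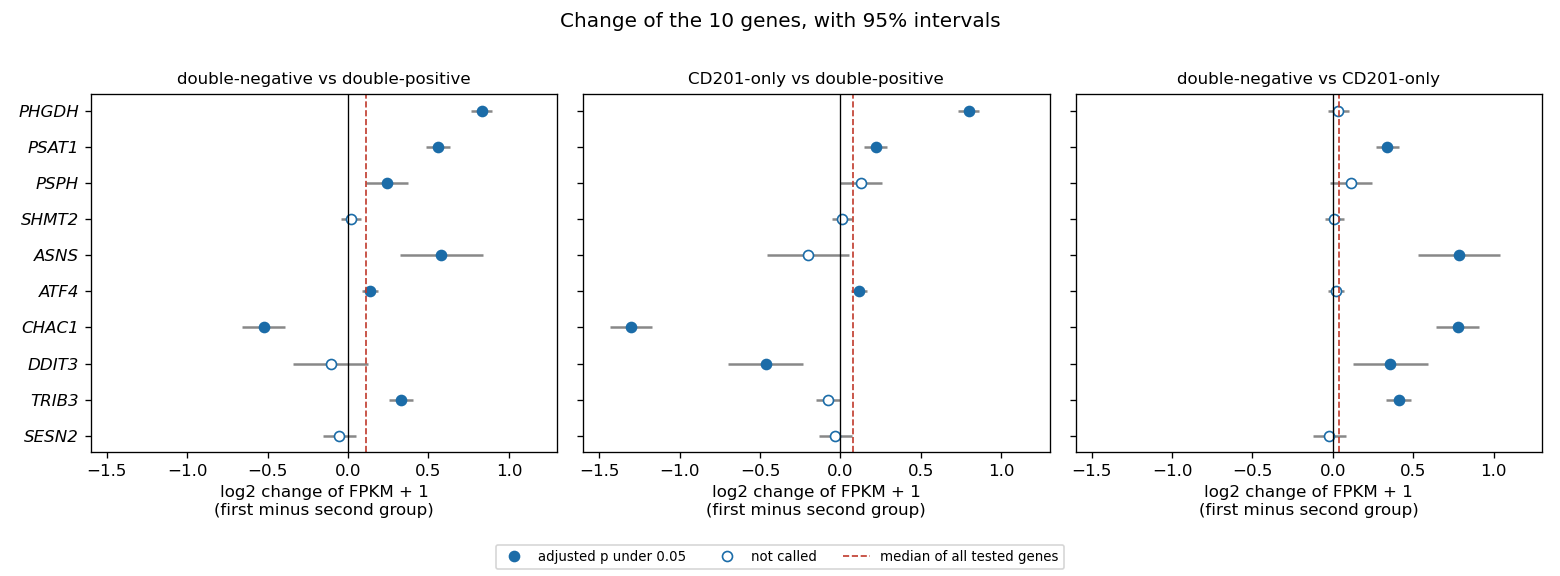
Change of each gene (rows) on the log2(FPKM + 1) scale, first-named minus second group, in the 3 comparisons (panels), with 95% intervals; filled points were called and the dashed line is the median of all tested genes. PHGDH is right of 0 in both comparisons with double-positive cells, CHAC1 is left of 0 in both, and ASNS, CHAC1, DDIT3 and TRIB3 are right of 0 between double-negative and CD201-only cells.

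**Figure D3:**
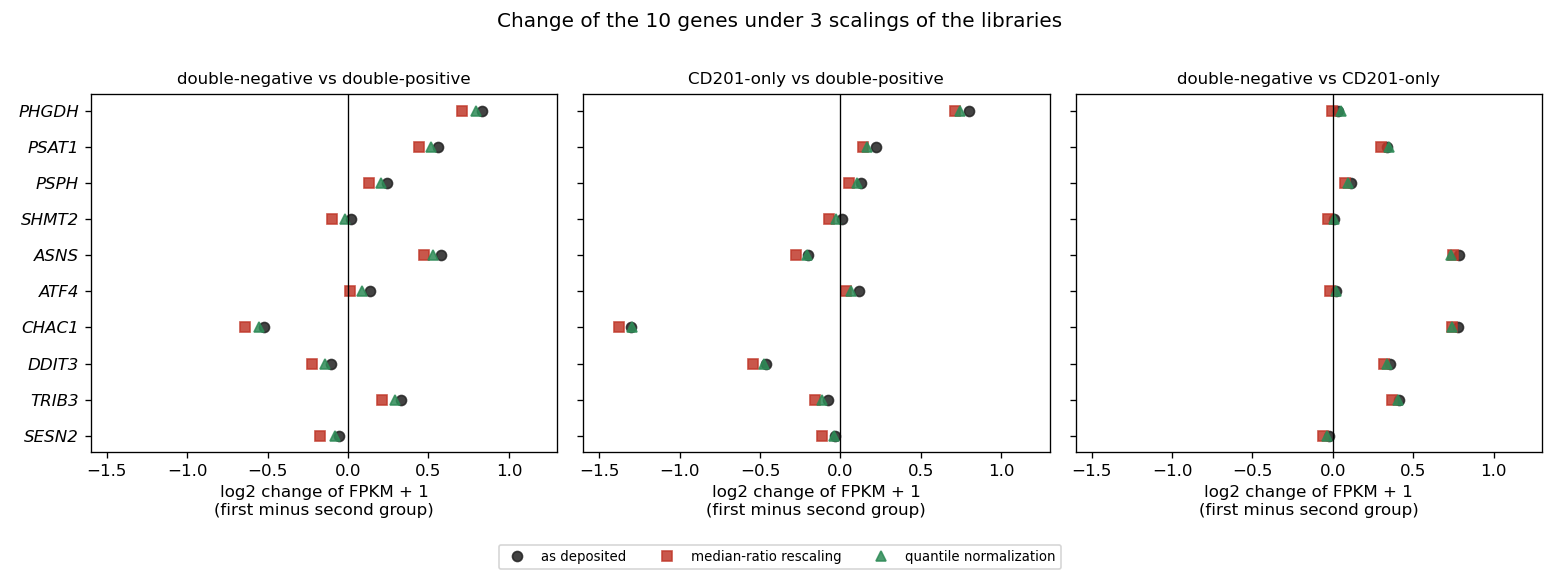
Change of each gene (rows) on the log2(FPKM + 1) scale as deposited, after median-ratio rescaling and after quantile normalization, in the 3 comparisons (panels). Median-ratio rescaling moves every gene to the left, by a similar amount within a panel, which takes ATF4 to 0.014 in double-negative and 0.033 in CD201-only cells and leaves PHGDH at 0.71 in both.

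The start regions of ASNS and CHAC1 are shown because they hold the core of the C/EBP-ATF response element, the site ATF4 binds, and because the 2 genes moved differently. The motif searched was TGATGNAA on both strands, in windows from 250 bases before to 50 bases after RefSeq start sites on GRCh38.p14. Sequences were matched by symbol for 8 of the 10 genes, not for PSPH and SHMT2. Each sequence runs 5′ to 3′ on the strand of its gene, and capitals mark the motif. ASNS lies at chr7:97872359-97872658 on the minus strand, and CHAC1 at chr15:40953221-40953520 on the plus strand.
ASNS: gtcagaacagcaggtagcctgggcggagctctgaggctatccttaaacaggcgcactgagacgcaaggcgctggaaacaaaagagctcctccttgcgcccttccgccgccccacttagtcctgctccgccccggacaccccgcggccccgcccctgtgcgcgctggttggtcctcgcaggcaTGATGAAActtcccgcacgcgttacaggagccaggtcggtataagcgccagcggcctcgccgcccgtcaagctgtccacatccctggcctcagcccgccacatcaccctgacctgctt
CHAC1: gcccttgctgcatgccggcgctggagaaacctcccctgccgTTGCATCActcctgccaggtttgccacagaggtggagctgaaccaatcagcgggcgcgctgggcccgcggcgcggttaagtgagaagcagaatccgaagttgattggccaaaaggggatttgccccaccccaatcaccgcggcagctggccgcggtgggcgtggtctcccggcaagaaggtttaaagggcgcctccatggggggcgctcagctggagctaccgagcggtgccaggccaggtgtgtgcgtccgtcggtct
The match begins 68 bases before the start of ASNS on the strand of the gene, and 209 bases before that of CHAC1 on the opposite strand, where it reads TTGCATCA on the strand shown. PHGDH, PSAT1, ATF4, DDIT3, TRIB3 and SESN2 had no match in their windows, nor had the window of a second annotated start of ASNS. Of 35116 windows 3.62% held the motif, and of the 9439 tested genes matched by symbol 2.55% did.

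Among the related lists, the motif was most frequent in tRNA synthetases under ATF4 and amino acid transporters under ATF4. These lists, like the other stress targets, were drawn up as genes under ATF4 or CHOP. Their shares are therefore not an independent result about these classes of genes. It stood in 7 of 11 tRNA synthetase and export genes with a sequence (63.6%), in 5 of 9 amino acid transporters (55.6%) and in 4 of 16 other stress targets (25%). It stood in 1 of 15 folate and glycine enzymes (6.67%). A match describes these letters in these windows and is not a measurement of binding.

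The enzymes that take up the products of the serine chain were mostly higher in both CD13-negative groups. Of 18 tested folate and glycine enzymes, 12 rose and 1 fell in double-negative against double-positive cells (median log2 change 0.42, against 0.11 for all genes), and 11 rose and 1 fell in CD201-only against double-positive cells (0.29, against 0.08 for all genes). The share called was 72.2% in the first, where 66.6% of all genes were called, and 66.7% in the second, where 58.7% were. After median-ratio rescaling 11 were higher and 4 lower in double-negative cells, and 10 higher and 2 lower in CD201-only cells. SHMT1, the cytosolic counterpart of SHMT2, rose by 0.86 and 0.81 in these comparisons, with means of 19.2 FPKM in double-negative, 18.4 FPKM in CD201-only and 10.1 FPKM in double-positive cells. TYMS, which makes thymidylate, rose by 0.61 and 0.71, and DLD, a subunit of the glycine cleavage system, by 0.65 and 0.32. The gene that fell was ALDH1L2, a mitochondrial folate dehydrogenase, named here after its values were seen (-0.85 and -0.82). Its levels were low, at 0.652 to 0.709 FPKM in the CD13-negative and 1.77 and 2.28 FPKM in the double-positive libraries, under the 5 FPKM asked of named genes. MTHFD2, a mitochondrial folate enzyme and ATF4 target, was at 0.14 (adjusted p = 0.00507) and 0.03 (adjusted p = 0.382), and the first call did not hold after median-ratio rescaling (0.022, adjusted p = 0.561), which turned the second to -0.049. Between double-negative and CD201-only cells 2 of the 18 were called higher, DLD (0.33) and MTHFD2 (0.11), and MTHFD2 was not called after median-ratio rescaling (0.071, adjusted p = 0.121). The share called there was 11.1%, below the 37.9% of all genes. Proliferation markers moved with this list: all 7 rose in both CD13-negative groups, with summed levels of 315 to 319 FPKM in double-negative, 329 to 334 FPKM in CD201-only and 224 to 225 FPKM in double-positive cells. Their part in the result was not tested.

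Genes of asparagine, glutamine, proline and cysteine metabolism were called in both directions. Of 21 tested, 13 rose and 1 fell in double-negative against double-positive cells (median 0.28), 10 rose and 4 fell in CD201-only against double-positive cells (median 0.09) and 10 rose and 2 fell in double-negative against CD201-only cells (median 0.18, against 0.04 for all genes). The share called was 66.7% in both comparisons with double-positive cells, at the 66.6% of all genes in double-negative and above the 58.7% in CD201-only cells, and 57.1% between double-negative and CD201-only cells, where 37.9% of all genes were called. After median-ratio rescaling the counts were 10 higher and 4 lower, 9 and 4, and 10 and 3. ASRGL1, an asparaginase, was at 20.3 FPKM in double-negative, 15.3 FPKM in CD201-only and 7.1 FPKM in double-positive cells, with changes of 1.40 and 1.00 against double-positive cells. CTH, which makes cysteine from cystathionine, was at 20.2, 12.7 and 8.84 FPKM in the same order and was 1.11 above double-positive and 0.63 above CD201-only cells in double-negative cells. GLUL, glutamine synthetase, was lowest in CD201-only cells, at 41.8 FPKM in double-negative, 21.5 FPKM in CD201-only and 38.0 FPKM in double-positive cells (-0.79 in CD201-only against double-positive cells, adjusted p = 1.89e-06). PRODH, proline dehydrogenase, was highest in CD201-only cells, at 87.3 FPKM, against 49.8 FPKM in double-positive cells (0.80). GPT2, a mitochondrial alanine transaminase, rose by 0.66 in double-negative cells against double-positive ones.

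The other ATF4 and CHOP stress targets were more often lower than higher against double-positive cells. Of 19 tested, 5 rose and 9 fell in double-negative cells (median -0.19), and 4 rose and 11 fell in CD201-only cells (median -0.25). That is 73.7% called in double-negative and 78.9% in CD201-only cells, against 66.6% and 58.7% of all genes. After median-ratio rescaling 3 were higher and 10 lower in double-negative, and 3 higher and 13 lower in CD201-only cells. CEBPB, a factor that pairs with ATF4, was at 12.7 FPKM in double-negative, 12.0 FPKM in CD201-only and 32.3 FPKM in double-positive cells (-1.29, adjusted p = 5.7e-07, and -1.35, adjusted p = 6.24e-07). NUPR1, a small stress-induced nuclear protein, was at 14.0, 18.1 and 32.3 FPKM in the same order (-1.16 and -0.81). SQSTM1, an autophagy receptor, fell by 0.72 and 0.88, and VEGFA, a growth factor of blood vessels, by 0.58 and 0.82. Between double-negative and CD201-only cells 6 rose and 5 fell, among them STC2, a secreted glycoprotein (0.52), and BBC3, which encodes the death factor PUMA (-0.35). The share called there was 57.9%, where 37.9% of all genes were called. Fibroblast markers fell with this list, 8 of 9 in each comparison with double-positive cells, with COL1A1, a collagen chain, at -2.47 and -2.79. The marker that rose was THY1 in double-negative (0.26) and S100A4 in CD201-only cells (0.21). The part of the fibroblast markers in the result was not tested.

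Amino acid transporters under ATF4 split. Of 10 tested, 4 rose and 6 fell in double-negative against double-positive cells (median -0.27), and 2 rose and 6 fell in CD201-only against double-positive cells (median -0.18). The shares called were 100% and 80%, where 66.6% and 58.7% of all genes were called, with medians of 0.11 and 0.08. After median-ratio rescaling the counts were 3 higher and 6 lower, and 2 higher and 7 lower. SLC7A11, the cystine transporter, was at 29.6 FPKM in double-negative, 15.3 FPKM in CD201-only and 18.4 FPKM in double-positive cells, and it rose by 0.66 in double-negative and fell by 0.26 in CD201-only against double-positive cells. SLC3A2, its heavy chain, rose by 0.45 in double-negative against CD201-only cells. SLC6A9, a glycine transporter, fell by 0.56 and 0.94 against double-positive cells and SLC1A4, a carrier of serine and other neutral amino acids, by 0.56 and 0.79. SLC7A5, a carrier of large neutral amino acids, was highest in CD201-only cells, at 86.5 FPKM, against 61.7 FPKM in double-negative cells (-0.48 in double-negative against CD201-only cells). SLC7A11 and SLC3A2, like ASNS and TRIB3, had their highest mean in double-negative cells.

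Genes that charge or export tRNA were mostly higher in double-negative than in double-positive cells. Of 13 tested, 10 rose and 1 fell against double-positive cells (median 0.27) and 6 rose, 0 fell and 7 were not called against CD201-only cells (median 0.15). The shares called were 84.6% and 46.2%, where 66.6% and 37.9% of all genes were called. After median-ratio rescaling 8 were higher and 1 lower against double-positive cells, and 4 higher and 0 lower against CD201-only cells. WARS, for tryptophan, was at 273 FPKM in double-negative, 227 FPKM in CD201-only and 173 FPKM in double-positive cells (0.66 and 0.39 against double-positive cells), and IARS, for isoleucine, rose by 0.43 in double-negative cells. CARS, for cysteine, was the exception, at -0.36 and -0.40. In CD201-only against double-positive cells 7 rose and 1 fell as deposited, but 2 rose and 2 fell under median-ratio rescaling. The share called as deposited was 61.5%, near the 58.7% of all genes.

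Genes upstream of ATF4 had small changes. Of 17 tested eIF2alpha kinases, eIF2 and eIF2B subunits and regulators, 11 rose and 0 fell in double-negative against double-positive cells (median 0.19) and 9 rose and 0 fell in CD201-only against double-positive cells (median 0.15). The shares called, 64.7% and 52.9%, were below the 66.6% and 58.7% of all genes called in either direction. All calls of the list were higher, and they were above the 42.1% and 35.8% of all genes called higher. Under median-ratio rescaling the counts became 5 higher and 1 lower in double-negative, and 4 higher and 1 lower in CD201-only cells. EIF2S3 and EIF2S2, subunits of eIF2, rose by 0.34 and 0.35 in double-negative cells and by 0.36 and 0.31 in CD201-only cells against double-positive cells, and the EIF2S2 call in CD201-only cells did not hold after median-ratio rescaling (0.23, adjusted p = 0.0547). Of the genes of the other arms of the unfolded protein response, which IRE1 and ATF6 control, 10 of 15 rose and 1 fell in double-negative against double-positive cells (median 0.32, and 9 and 3 under median-ratio rescaling), and 9 rose and 0 fell against CD201-only cells (median 0.26, and 8 and 2 under median-ratio rescaling). HSPA5, the main chaperone of the endoplasmic reticulum, was at 313 FPKM in double-negative, 261 FPKM in CD201-only and 200.5 FPKM in double-positive cells, and HYOU1, its partner, rose by 0.78 and 0.52 against double-positive cells. In CD201-only against double-positive cells 7 of the 15 rose and 4 fell (median 0.04), and 5 rose and 5 fell after median-ratio rescaling (median -0.04). Of these 15 genes 73.3%, 60% and 73.3% were called in these comparisons, in the order given. Of all genes 66.6%, 37.9% and 58.7% were called.

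Genes related to SESN2 and TRIB3 were called in both directions. Of 19 tested sestrins, tribbles and genes of amino acid sensing by mTORC1, 6 rose and 3 fell in double-negative and 9 rose and 3 fell in CD201-only against double-positive cells (medians 0.05 and 0.15), and under median-ratio rescaling these counts were 5 and 5, and 5 and 4. As deposited 47.4% and 63.2% of the list were called, against 66.6% and 58.7% of all genes. RRAGD, a Rag GTPase of the mTORC1 pathway, was at 9.65 FPKM in double-negative, 6.2 FPKM in CD201-only and 3.41 FPKM in double-positive cells (1.27 and 0.71). SESN1, a p53-induced sestrin, rose by 0.49 in double-negative cells, and TRIB1, a tribbles pseudokinase, fell by 0.68 and 0.34.

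**Figure D4:**
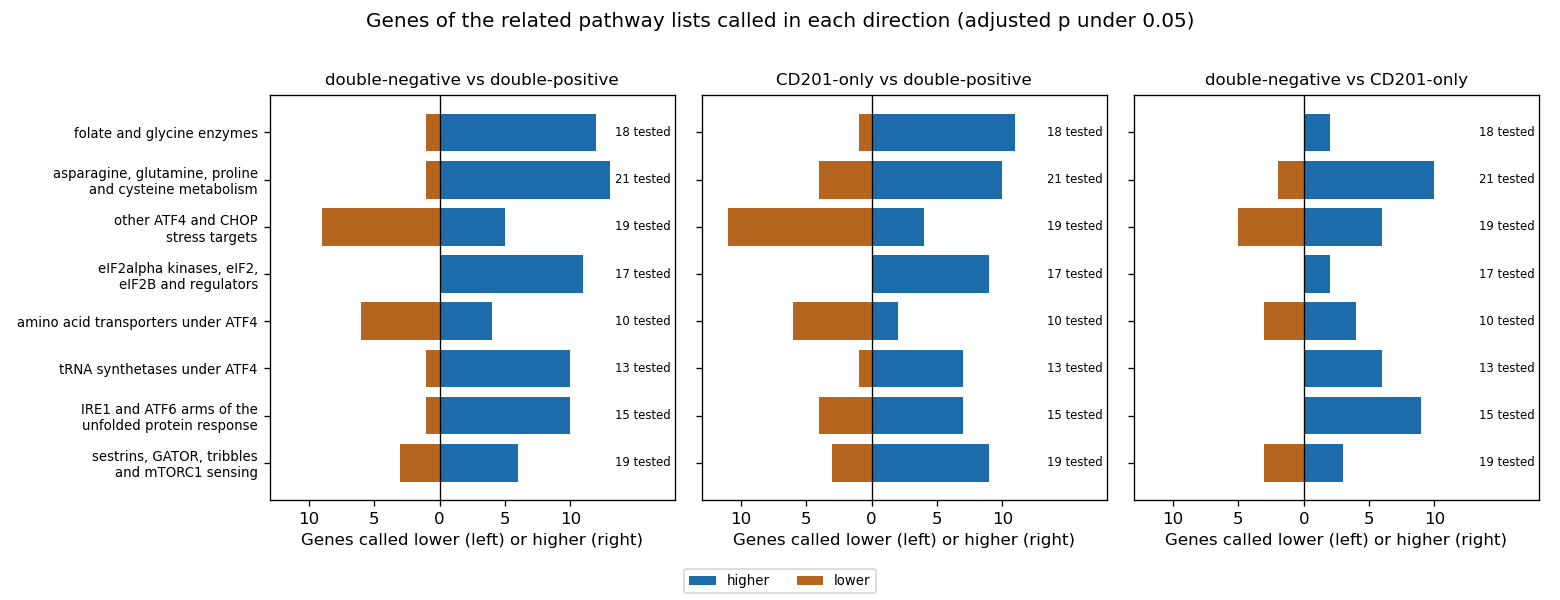
Number of genes of each related list (rows) called lower (left of 0) or higher (right of 0) in the 3 comparisons (panels), with the number tested at the right. Folate and glycine enzymes are mostly higher against double-positive cells, 12 and 11 of 18, and other ATF4 and CHOP stress targets are more often lower than higher, 9 lower and 5 higher in double-negative and 11 lower and 4 higher in CD201-only cells of 19.

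**Figure D5:**
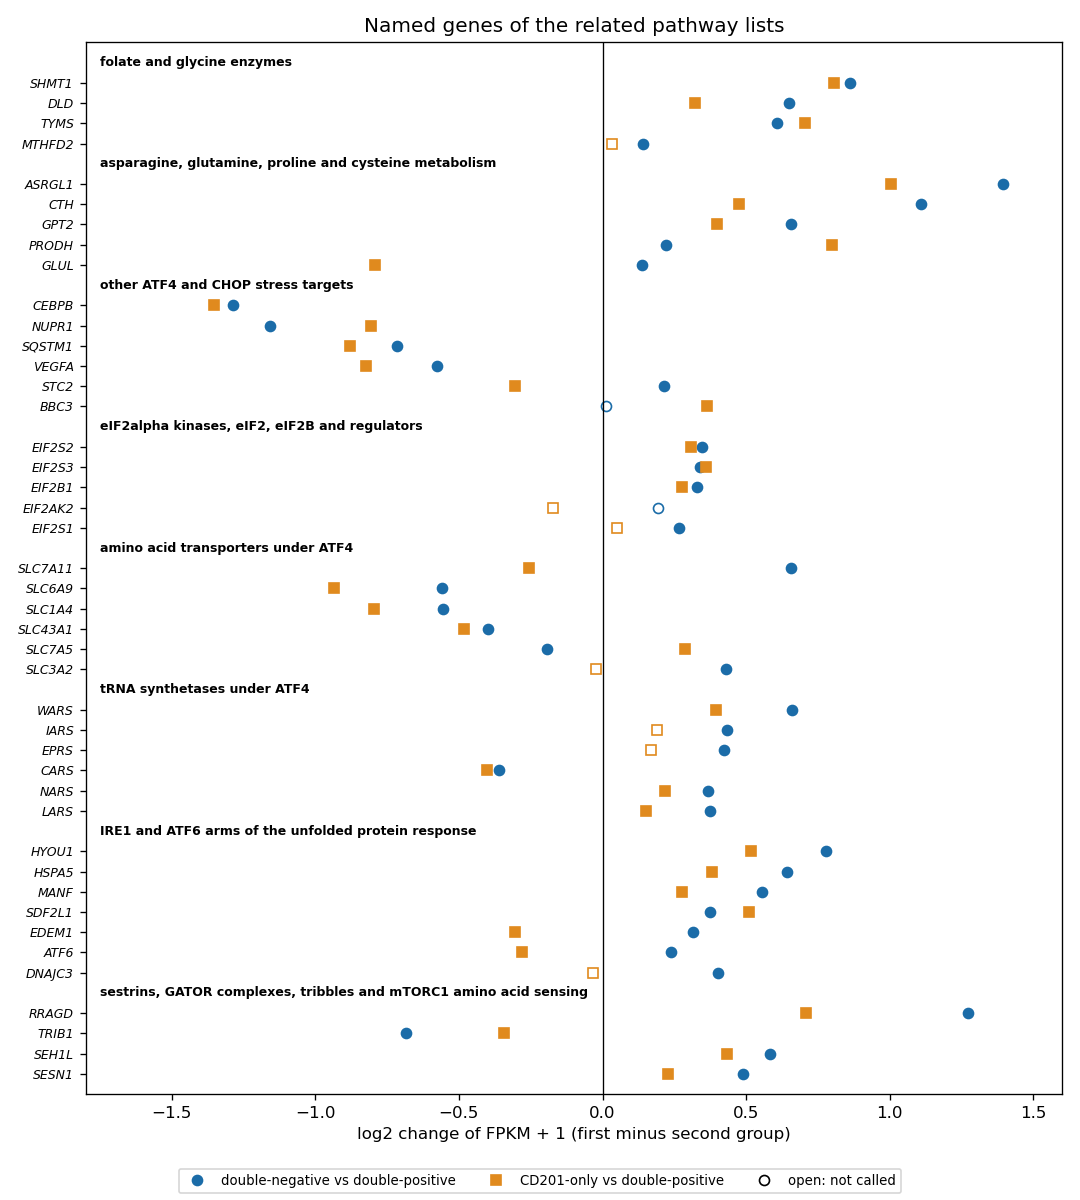
Change of named genes of the related lists (rows) on the log2(FPKM + 1) scale in double-negative (circles) and CD201-only cells (squares) against double-positive cells, with open symbols where the gene was not called. CEBPB lies near -1.3 in both, ASRGL1 at 1.40 and 1.00, and SLC7A11 and STC2 lie on opposite sides of 0 in the 2 comparisons.

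The genes whose profiles over the 6 libraries lay nearest to those of the 10 genes, by Euclidean distance of centred log2(FPKM + 1) values among 8272 genes averaging 5 FPKM or more, were found for each gene. Nearest to PHGDH were GNG4 (distance 0.0609), LRRC2 (0.0637) and DANCR (0.067). Nearest to PSAT1 were STAU1 (0.0488), ITM2C (0.0488) and PGM1 (0.0632). CHAC1 was less closely matched, by SULF1 (0.159), EGR1 (0.208) and MSC (0.208), and EGR1 was at 45.2 FPKM in double-negative, 27.1 FPKM in CD201-only and 73.2 FPKM in double-positive cells. Since the 6 libraries form 3 groups, such a distance describes group means and replicate scatter only.

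Among markers of other cell types, some were at or near 0 and others were expressed. The blood marker CD3E was listed at 0 in all 6 libraries, and the keratinocyte markers TP63, KRT1 and DSG3 and the endothelial marker PECAM1 did not exceed 0.133 FPKM in any. The keratinocyte marker KRT14 was at 29.1 and 30.3 FPKM in double-positive and KRT5 at 9.84 and 9.74 FPKM in CD201-only libraries. Across all libraries KRT10 was at 6.33 to 7.34 FPKM, and the endothelial markers TEK at 13.5 to 26.4 FPKM and CLDN5 at 1.84 to 6.75 FPKM. Summed keratinocyte markers were at 10.5 to 11.3 FPKM in double-negative, 19.2 to 19.5 FPKM in CD201-only and 42.3 to 43.6 FPKM in double-positive cells. Summed endothelial markers were at 16.3 to 16.4 FPKM, 29.4 to 31.1 FPKM and 25.6 to 27.7 FPKM, and summed blood markers, mostly CD14, at 21.5 to 21.8 FPKM, 8.88 to 10.5 FPKM and 33.3 to 34.7 FPKM in the same order. CD14, a receptor of myeloid cells, had the group order of CHAC1, with means of 19.8 FPKM in double-negative, 8.94 FPKM in CD201-only and 32.9 FPKM in double-positive cells. Summed markers of pluripotent cells were at 179 to 181 FPKM in double-negative, 112 to 113 FPKM in CD201-only and 51.5 to 53.6 FPKM in double-positive cells. All 7 tested rose in both CD13-negative groups. The sums had the order of the serine enzymes, but not every marker did. Between double-negative and CD201-only cells 5 of the 7 rose and 1 fell, UTF1 (-0.27, limma adjusted p = 0.0356). NANOG overlapped, at 3.75 and 4.11 FPKM in double-negative and 4.73 and 3.62 FPKM in CD201-only libraries. The part of these markers in the changes of the 10 genes was not tested.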

How the data were processed

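Levels are FPKM values as the authors deposited them, in 1 table with 6 library columns, all assigned from the labels. Stranded poly-A libraries were made with a TruSeq kit, per the labels' protocols, and STAR, Cuffnorm and the builds hg19 and GRCh37 are named in the submitters' processing notes. Tool versions, the annotation and the scaling chosen in Cuffnorm were not given in the sources used here.

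Values were taken as log2(FPKM + 1), which understates the fold of low genes. The 12210 genes averaging 1 FPKM or more were fitted in limma 3.58.1 (R 4.3.3) with a mean per group, all 6 libraries in one fit and a variance trend (3 residual degrees of freedom, prior worth 3.95). Calls are two-sided at a Benjamini-Hochberg adjusted p under 0.05 over all tested genes. The fit was tested on simulated data. The 10 genes and the lists were chosen with earlier results of these data known. Named genes are the 10 and, from each list and comparison, up to 3 genes with the largest called change, groups that do not overlap and at least 5 FPKM in the higher group. Some of these are not reported here. Lists were counted, not tested.

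Depth was approximated from the lowest FPKM steps of 41 genes with transcripts no shorter than 3000 nt, taking fragments as 200 nt long. For the first double-negative library the median was 13.7 M and the interquartile range 9.98 to 16.7 M, so fragment numbers are rough, and counting errors cover counting only. Replicates differed by 1.12 (double-negative), 1.35 (CD201-only) and 1.62 (double-positive) times their counting variance. Python 3.11.15, pandas 2.3.3, numpy 2.4.6 and matplotlib 3.10.9 were used for the other steps.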

Additional observations from a re-analysis of the deposited data

How the results depend on the processing

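Of 480 values of the 10 genes under 16 alternatives, 452 kept their direction and their side of the threshold, 12 lost a call, 6 gained one and 10 changed sign. Averaging the double-negative libraries as 1, because they differed by little more than counting, was chosen after seeing the data. None of the values that changed sign was called as deposited. Under median-ratio rescaling they were SHMT2 in double-negative (-0.10) and CD201-only (-0.073) against double-positive cells, and, between double-negative and CD201-only cells, PHGDH (-0.0038), SHMT2 (-0.030) and ATF4 (-0.019). Under quantile normalization SHMT2 was at -0.021 in double-negative and -0.026 in CD201-only against double-positive cells. With 1 library left out, SHMT2 ran from -0.0086 (without double-positive replicate 2) to 0.029 in CD201-only against double-positive cells. SESN2 ran from -0.075 to 0.011 (without CD201-only replicate 2) there, and from -0.066 to 0.021 (without CD201-only replicate 1) between double-negative and CD201-only cells. Median-ratio rescaling moved the median of all genes to 0.0029 in double-negative against double-positive cells, against 0.11 as deposited.

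Of the 10 genes, 3 were then called lower in double-negative against double-positive cells, where 1 was as deposited. Without the filter 3 were called higher in double-negative against CD201-only cells, where 5 were with it, and it left 3016 of all genes called there, against 4632. Leaving out 1 library gave 2888 (without double-negative replicate 1) to 4903 calls there, 3040 without double-negative replicate 2, and averaging the double-negative libraries gave 2818. Calls with 1 library left out ran from 6851 to 7966 between double-negative and double-positive cells and from 5969 to 6782 between CD201-only and double-positive cells. A lone library in a group is then assumed to vary like the others. With the replicate number as a block, 8110, 7189 and 4590 genes were called in the 3 comparisons and no call of the 10 genes changed. The samples share only a number: same-numbered deviations correlated at 0.0761 (double-negative with CD201-only), -0.0727 (double-negative with double-positive) and 0.117 (CD201-only with double-positive). Depth limits ASNS and DDIT3 most, at 151 to 379 fragments. CHAC1 was on about 168 and 227 fragments in the CD201-only libraries.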
